A study of Mus musculus with 4 samples.

Results

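The interferon regulatory factors (IRFs) described here are 7 transcription factor genes, Irf1, Irf2, Irf3, Irf5, Irf7, Irf8 and Irf9, taken by symbol from a table of 21705 genes, with Irf4 not among them. All 7 were found in the table, and all 7 passed a filter on low values, an average of 73.3 or more (5 ppm of the library total), as did 9933 genes in all. RNA-seq was run on splenic T cells of the C57bl/6 strain that had been sorted into a CD4 and a CD8 fraction, either on the day of an allogeneic transplant or later. Such a transplant moves cells between genetically different individuals, and the series concerns acute graft-versus-host disease, in which donor T cells attack the recipient. Each of the 4 groups (CD4 at, CD4 after, CD8 at and CD8 after transplant, the order kept throughout) is 1 library made from 5 mice pooled ahead of the sort. The titles mark the libraries at transplant as Donor and the later ones as d12 and Allo, whereas the characteristics of the later ones give 14 days. The protocols describe the later cells as transplanted T cells, but no label names a recipient strain, a donor marker or a genotype. None of the 4 libraries is labelled as an untransplanted or syngeneic control of the later time.

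IRFs share a DNA-binding domain that reads repeats of the letters GAAA, the core of the interferon-stimulated response element (ISRE). Irf1 is induced by interferon gamma, whose signal reaches DNA at the gamma-activated site (GAS), and it activates genes of antigen presentation, while Irf2 occupies the same sites and can oppose it. Irf3 and Irf7 are activated by the kinases Tbk1 and Ikbke after sensing of foreign nucleic acid and switch on type I interferon genes. Irf9 acts with Stat2 in the complex ISGF3, which carries the type I interferon signal. Irf5 acts below Toll-like receptors and is best known in myeloid and B cells. Irf8 directs the development of dendritic cells, monocytes and B cells and has also been described in effector CD8 T cells.

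Irf5 and Irf8 were the members with the largest differences between libraries, and Irf1 with its GAS stayed within 2-fold, so their start regions are shown here. RefSeq (GRCm38.p6) windows from 250 bases before to 50 bases after a listed start were available for all 7 genes. GAS was searched as TTCNNNGAA and ISRE as GAAANNGAAA, each on both strands, and capitals mark the matches. The 3 windows are those of Irf8 at chr8:120736108-120736407, Irf5 at chr6:29526375-29526674 and Irf1 at chr11:53769764-53770063, all on the plus strand.
Irf8: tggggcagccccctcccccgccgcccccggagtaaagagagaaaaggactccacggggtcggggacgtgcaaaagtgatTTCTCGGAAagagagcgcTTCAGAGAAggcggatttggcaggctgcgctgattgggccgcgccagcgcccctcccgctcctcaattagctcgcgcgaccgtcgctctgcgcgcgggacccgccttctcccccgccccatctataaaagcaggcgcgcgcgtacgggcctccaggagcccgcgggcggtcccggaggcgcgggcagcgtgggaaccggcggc
Irf5: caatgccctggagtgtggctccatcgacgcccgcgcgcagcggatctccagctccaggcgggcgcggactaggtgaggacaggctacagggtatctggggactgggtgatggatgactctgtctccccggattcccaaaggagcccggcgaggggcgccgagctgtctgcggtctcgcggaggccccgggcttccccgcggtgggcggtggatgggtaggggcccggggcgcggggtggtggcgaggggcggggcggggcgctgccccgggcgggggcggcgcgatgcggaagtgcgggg
Irf1: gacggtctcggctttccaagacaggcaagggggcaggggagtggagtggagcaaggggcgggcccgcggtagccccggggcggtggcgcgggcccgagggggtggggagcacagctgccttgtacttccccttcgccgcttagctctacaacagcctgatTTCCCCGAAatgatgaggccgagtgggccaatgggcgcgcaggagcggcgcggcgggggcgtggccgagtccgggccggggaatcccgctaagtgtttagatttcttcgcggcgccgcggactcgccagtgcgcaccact

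The Irf8 window held a pair of GAS matches, TTCTCGGAA from 171 and TTCAGAGAA from 153 bases upstream of the start. Irf1 held 1 match, TTCCCCGAA, from 90 bases upstream, and Irf5 held no match of either motif. Irf2 held the GAS match TTCCGAGAA and the only ISRE match of the members, GAAAATGAAA, from 224 and 241 bases upstream, and the 2 matches do not overlap. No match lay in the windows of Irf3, Irf7 and Irf9 or in the other listed windows of Irf1 and Irf8. Of 32544 windows of the same length over all genes, 8.33% held a GAS match and 3.45% an ISRE match. These are matches of letters, and the members that were higher after transplant include 1 with GAS matches and 1 without.

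Values are estimated reads per gene as deposited, scaled by library so that the upper quartile of genes above 0 stood near 1000. Depth ran from 9873851 to 23633544 estimated reads per library, and 3 reads, the limit that a count of 0 allows, corresponded to values of 1.99 to 4.23. With 1 library per group there was no replicate check and no test. The 95% intervals of ratios are exact conditional binomial intervals on estimated reads and cover counting error only. A gene is counted as higher or lower when it differed by at least 2-fold after adding 14.7 (1 ppm of the average library total) to both values. Cd4 stood at 15134 and 17092 in the CD4 libraries and at 94.5 or less in the CD8 libraries, and Cd8a at 21107 and 17999 in CD8 and 295 or less in CD4, so the fractions match their labels. The source field names innate lymphoid cells, while the 8 listed T cell genes (the Cd3 chains, Cd247, Lck, Thy1, Cd2 and Cd5) summed to 71820.1, 60564, 72675 and 56399, and none of the 8 differed by 2-fold after against at transplant in either fraction. Bulk RNA cannot tell fewer cells of a type from less RNA per cell.

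**Figure D1:**
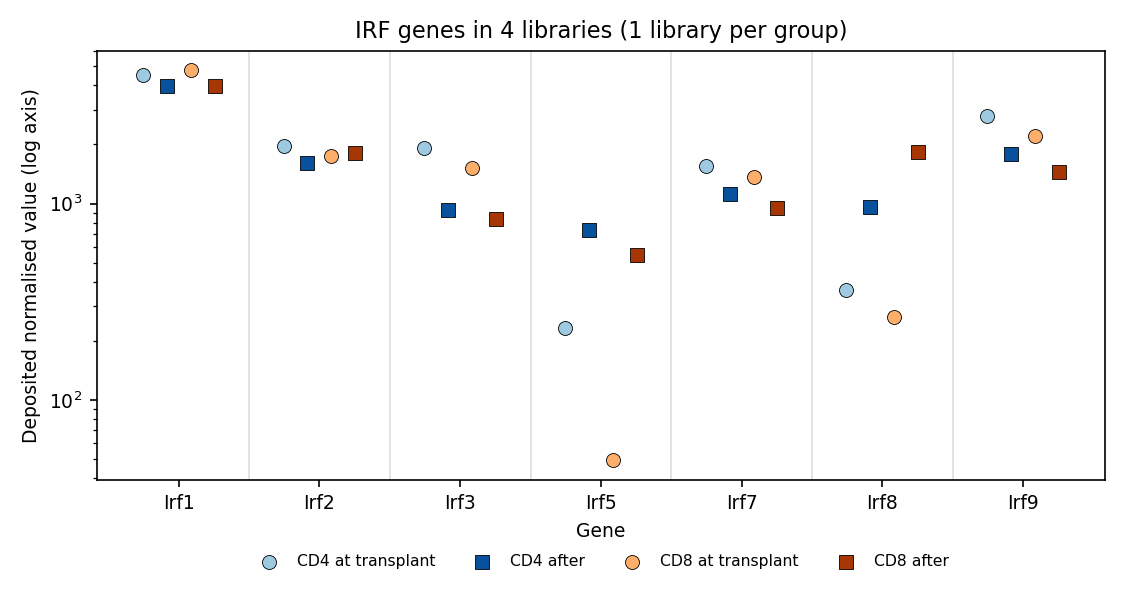
Deposited normalised value (log axis) of each IRF gene in the 4 libraries, 1 point per library. Irf5 ranges from 49.2 to 729 and Irf8 from 263 to 1827, while Irf1 stays between 3953 and 4779.

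After transplant, Irf5 and Irf8 were higher in both T cell fractions, Irf3, Irf7 and Irf9 were lower in both, and Irf1 and Irf2 stayed close to their levels at transplant. In CD4, 2 of the 7 members were at least 2-fold higher, against 12.1% of all genes tested, and 1 was at least 2-fold lower, against 10.8%. With library totals set equal, the share of higher genes among all CD4 genes past 2-fold went from 52.8% to 63.3%, as that scaling shifted the median of all genes by 0.15. In CD8, 2 members were higher, against 15.0% of all genes, and 0 were lower, against 11.0%. The median log2 ratio of the members was -0.28 in CD4 and -0.27 in CD8, and over all genes tested it was -0.08 and 0.02. The members were picked with results of these data known, so these counts describe the family and compare it with nothing.

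Irf8 stood at 361, 959, 263 and 1827 in the 4 libraries, from 544, 1094, 319 and 1295 estimated reads. Both later libraries lay above both earlier ones, with CD8 after transplant the highest and CD8 at transplant the lowest. The ratio after against at transplant was 2.65 in CD4 (95% counting interval 2.39 to 2.95) and 6.93 in CD8 (6.13 to 7.86). Its log2 ratios of 1.37 and 2.73 lay above those of 91.5% and 95.6% of all genes tested. All neighbours in the order of the 4 levels differed beyond counting error. The CD8 ratio was 2.61 times the CD4 ratio (2.23 to 3.06, from a normal approximation to the counting error of 4 read counts). After transplant Irf8 was 1.90 times as high in CD8 as in CD4 (1.76 to 2.07), short of 2-fold by value, and 1.13% of all genes tested had a lower CD4 to CD8 ratio there.

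Irf5 stood at 232, 729, 49.2 and 546, from 349, 832, 59.6 and 387 estimated reads. Again both later libraries were above both earlier ones, but here CD4 was the higher fraction at each time. The ratio was 3.15 in CD4 (2.77 to 3.58) and 11.1 in CD8 (8.38 to 14.7), and the CD8 ratio was 3.52 times the CD4 ratio (2.61 to 4.76). The fractions differed more before than later: at transplant CD4 was 4.71 times as high as CD8 (3.55 to 6.26), and after transplant 1.34 times (1.18 to 1.51). With the pseudocount, the log2 ratios were 1.59 in CD4 and 3.13 in CD8, above 92.5% and 96.8% of all genes tested. All neighbours in its order of levels differed beyond counting error.

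**Figure D2:**
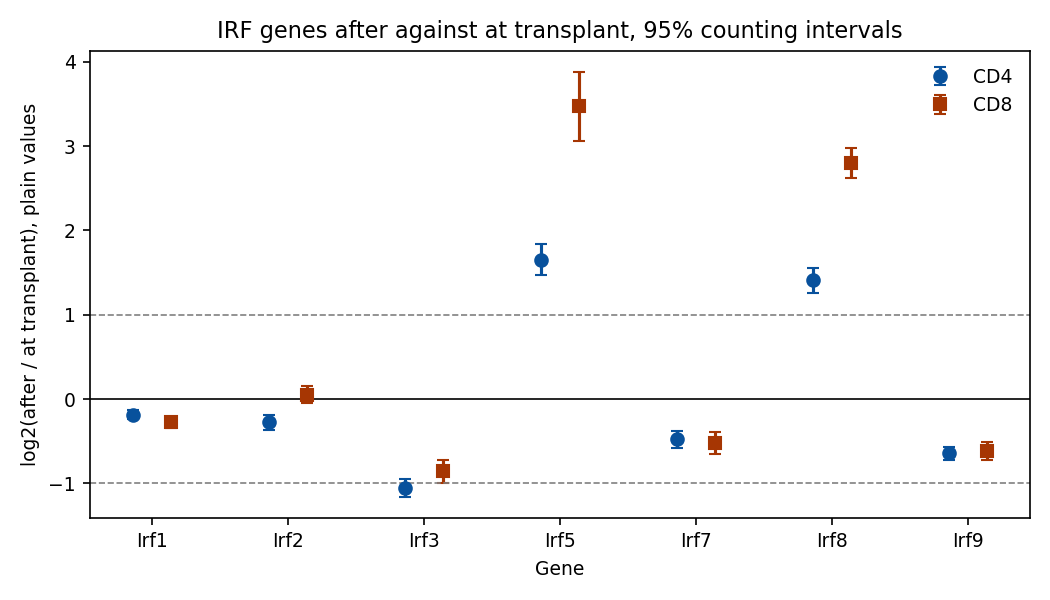
log2 of the plain ratio after against at transplant for each IRF gene, with 95% counting intervals, for CD4 (circles) and CD8 (squares); dashed lines mark 2-fold. Irf5 and Irf8 lie above 2-fold in both fractions, at ratios of 3.15 and 2.65 in CD4 and 11.1 and 6.93 in CD8, and Irf3 lies near 2-fold lower.

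The estimated reads of Irf5 lay up to 0.38 from a whole number, and more than 0.1 from one in 3 of the 4 libraries, whereas those of the other 6 members were whole. RSEM gives such fractions where a read matches more than one place. Irf5 lies on chromosome 6 from 29526625 to 29541871 (GRCm38, GENCODE M21), where 251 of its exon bases, or 9.48%, overlap exons of Tnpo3 on the opposite strand. The labels do not say whether the libraries kept strand. Tnpo3, a nuclear import receptor, stood at 1875, 1874, 1739.6 and 1909.5, so it was nearly level across the libraries. Irf8 lies on chromosome 8 from 120736358 to 120756694 and shares no exon bases with another annotated gene. On the same build, Irf1 lies at chr11:53770014-53778374, Irf2 at chr8:46739732-46847458, Irf3 at chr7:44997648-45002848, Irf7 at chr7:141262706-141266481 and Irf9 at chr14:55603571-55610030, with Irf7 alone on the minus strand. Of the rest, Irf9 shares 123 exon bases (3.97%) with Rnf31 on the same strand, and Irf1 shares 100 with Gm17334 on the opposite strand.

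Markers of cells in which Irf5 and Irf8 are well known were present in these sorted libraries. The 14 macrophage and monocyte markers summed to 9314, 4784, 1297 and 4791, of which only Cd14 was at 0 and only in CD8 at transplant. The most abundant of them were Lyz2 (lysozyme) at 3504, 2685, 671 and 2464, Mpeg1 (perforin-2) at 1023, 897, 370.0 and 1061, and Vcam1 (an adhesion molecule of macrophages and stroma) at 1175, 152, 28.9 and 123. Among the 11 that passed the filter, the later CD4 library had 0 higher and 6 lower, and the later CD8 library had 10 higher. Over all genes tested, 12.1% were higher and 10.8% lower in CD4, and 15.0% and 11.0% in CD8. The counts of the other marker lists stand beside the same shares. In CD4 the macrophage sum was 0.514 times as high after transplant while Irf5 and Irf8 were higher. In CD8 it was 3.69 times as high, moving with them. At transplant it was 7.18 times as high in CD4 as in CD8, the same direction as Irf5 (4.71 times) and Irf8 (1.37 times). In that comparison 6 of the 7 members had a log2 ratio above 0, beside a median of 0.14 over all genes tested. Irf8 had 0.43, or 0.26 with median of ratios scaling.

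The 9 neutrophil markers summed to 18782, 31799, 3391 and 27439, a ratio after against at transplant of 1.69 in CD4 and 8.09 in CD8, and none was at 0. All 9 passed the filter, with 3 higher and 2 lower in CD4 and 7 higher in CD8. S100a9 and S100a8, calcium-binding proteins, and Ngp, a granule protein, were the most abundant, with S100a9 at 6741, 11136, 1265 and 9220.0. S100a8 stood at 4026, 7330.3, 680 and 6405 and Ngp at 3441, 7024, 573 and 6212. These sums rank the libraries as Irf5 does, but not every marker did. The 2 lower in CD4 were Csf3r (550, 127, 149 and 109) and Cxcr2 (279, 96.4, 85.1 and 117). Both were highest in CD4 at transplant. The 12 dendritic cell markers, led by Cst3, Ccr9 and Itgax, summed to 2440 (CD4 at), 2146, 4667 and 3996, with ratios of 0.880 in CD4 and 0.856 in CD8, although T cells also express Ccr9 and Itgax. Without Ccr9, left out after its values were seen, the sums were 2207, 2027, 1415 and 3947, a ratio of 0.919 in CD4 and 2.79 in CD8. Of the 6 that passed the filter, 1 was higher and 2 were lower in the later CD4 library, and 4 were higher and 1 lower in the later CD8 library. Cst3, a protease inhibitor, stood at 1167, 1460 (CD4 after), 999 and 2210.2, Ccr9, a homing receptor, at 233, 119, 3252 and 49.8, and Itgax, an integrin chain, at 579, 136, 195 and 1119. Cd209a, a lectin of dendritic cells, was at 0 in both later libraries.

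The 10 B cell markers summed to 266, 395, 425 and 228, less than the macrophage and neutrophil sums in each library. Cd22, Cd79b and Cd79a were the most abundant. Cd22, an inhibitory lectin, stood at 133, 353, 97.5 and 171 and Cd79b, a B cell receptor subunit, at 50.5, 21.9, 309 and 52.2, while its partner Cd79a was at 25.9 or less in every library. Pax5, the factor of B cell identity, was at 0 in 3 libraries and at 1.75 in CD4 after transplant. Plasma cell markers summed to 410 (CD4 at), 57.0, 32.2 and 57.8, with Igj (the joining chain of immunoglobulins) at 390.4, 31.6, 20.6 and 25.4 and Derl3 and Sdc1 at 16.9 or less. NK cell markers, among which Gzma, Klrk1 and Eomes are also made by T cells, summed to 2210 (CD4 at), 1439, 2662 and 10192. Gzma, a granule protease, stood at 798, 353, 461 and 5140, Klrk1, an activating receptor, at 429, 312, 476 and 3017, and Eomes, a transcription factor, at 295, 687, 1614 and 1858. Ncr1, which T cells mostly lack, was at 172, 0, 9.91 and 2.82. Erythroid markers were higher after transplant in both fractions, as were Irf5 and Irf8, and summed to 237, 1726, 43.2 and 1506. Hbb-b1 (a globin chain) stood at 164, 1019, 19.2 and 861, and Slc4a1 (the anion exchanger of red cells) at 21.9, 435, 9.91 and 394. Which cells of the libraries carried Irf5 and Irf8 was not tested.

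**Figure D3:**
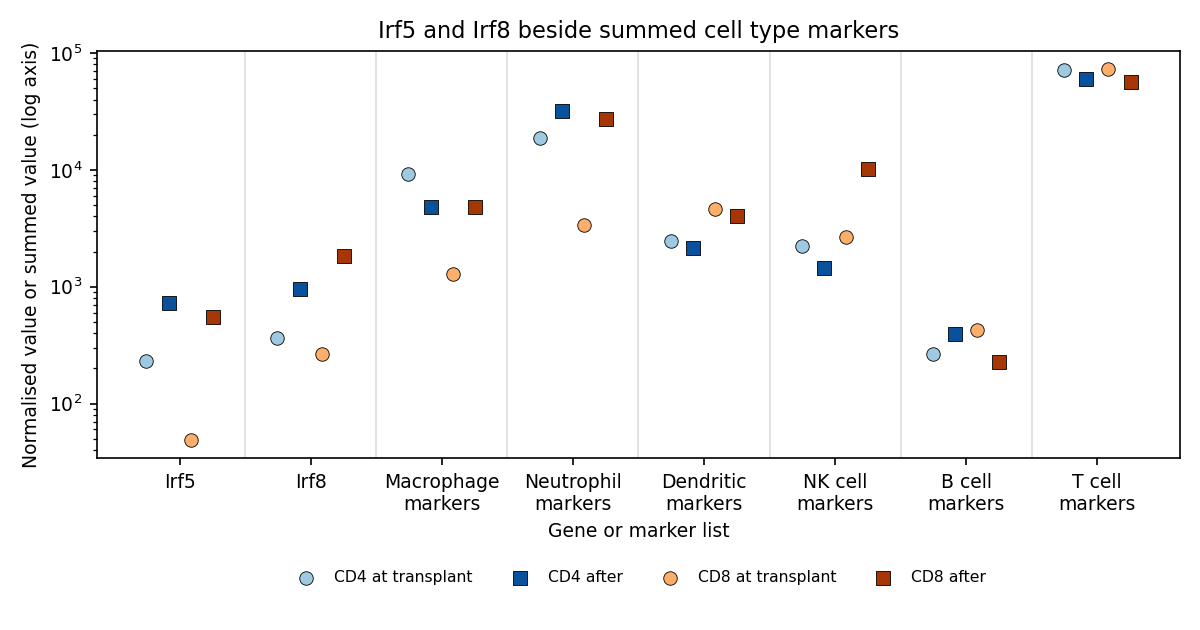
Deposited value of Irf5 and Irf8 beside the summed value of macrophage, neutrophil, dendritic, NK, B and T cell markers in the 4 libraries (log axis). In CD4 the macrophage sum goes from 9314 to 4784 while Irf5 goes from 232 to 729, and in CD8 both are higher after transplant. The neutrophil sum goes from 18782 to 31799 in CD4 and from 3391 to 27439 in CD8.

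Irf3, Irf7 and Irf9, the members of the nucleic acid and type I interferon pathways, were lower after transplant in both fractions and had the same order of levels, CD4 above CD8 at each time and both later libraries below both earlier ones. The CD4 lead at transplant was smaller with median of ratios scaling. There its log2 ratio fell from 0.19 to 0.01 for Irf7. For Irf3 and Irf9 it fell from 0.34 and 0.33 to 0.15. Irf3 stood at 1916, 923, 1515 and 835. It was 2.08-fold lower in CD4 (1.93 to 2.23) and 1.81-fold lower in CD8 (1.65 to 1.99). Of all genes tested, 9.94% in CD4 and 14.0% in CD8 had a lower log2 ratio than Irf3. In CD4 its log2 ratio of -1.04 fell short of 2-fold with median of ratios scaling (-0.98) and with equal library totals (-0.89). The levels of CD4 and CD8 after transplant did not differ beyond counting error (ratio 1.11, 0.999 to 1.22).

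Irf9 stood at 2793, 1788, 2212 and 1446. It was 1.56-fold lower in CD4 (1.48 to 1.65) and 1.53-fold lower in CD8 (1.42 to 1.65). Irf7, itself a target of type I interferon, stood at 1556, 1116, 1360.2 and 949, 1.39-fold lower in CD4 (1.30 to 1.49) and 1.43-fold lower in CD8 (1.31 to 1.57). Both stayed within 2-fold. Of all genes tested, 20.8% had a lower log2 ratio than Irf9 in each fraction. For Irf7 these shares were 27.9% in CD4 and 24.2% in CD8. For both members the ratio of the CD8 to the CD4 ratio included 1 in its counting interval (0.934 to 1.12 for Irf9, 0.869 to 1.09 for Irf7). The profiles of Irf7 and Irf9 were the closest of any pair of members, with a distance of 0.17.

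Irf1 and Irf2, the activator and the opposing factor of the interferon gamma response, differed least across the 4 libraries. Irf1 stood at 4519, 3977, 4779 and 3953, with a highest to lowest ratio of 1.21. It was 1.14-fold lower after transplant in CD4 (1.09 to 1.18) and 1.21-fold lower in CD8 (1.16 to 1.26), and the 2 later libraries did not differ beyond counting error (ratio 1.01, 0.960 to 1.05). Irf2 stood at 1961, 1618, 1754 and 1815, again with a highest to lowest ratio of 1.21, and it was lower after transplant in CD4 (ratio 0.825, 0.778 to 0.875) but not beyond counting error in CD8 (1.03, 0.965 to 1.11).

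Between the fractions at transplant, 1 of 7 members was at least 2-fold higher in CD4, against 4.92% of all genes tested, and 0 were at least 2-fold lower, against 1.48%. The higher member was Irf5, with a log2 ratio of 1.95. Irf3, Irf9, Irf8, Irf7 and Irf2 had log2 ratios of 0.16 to 0.43, and Irf1 had -0.08, beside a median over all genes of 0.14. Median of ratios and trimmed mean of M-values scalings shifted this comparison by -0.19 and -0.16, and with them Irf2 stood at -0.03 and -0.00 instead of 0.16. After transplant 0 of 7 members passed 2-fold in either direction, against 2.42% of all genes higher and 0.956% lower, and Irf8 came nearest with -0.92.

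Levels were compared between members per kilobase of the mean coding transcript of GENCODE M21, which need not be the lengths used by the authors. On that scale Irf1 was the most abundant member and Irf5 the least in all 4 libraries, at 2152 and 114, 1895 (CD4 after) and 357, 2276 and 24.1, and 1883 and 268 per kb. Irf8 stood at 169, 449, 123 and 856 per kb. In CD8 after transplant it was thereby the third most abundant, behind Irf1 and Irf2 (1197 per kb), and in CD8 at transplant it was below all but Irf5. These ranks of Irf1, Irf5 and Irf8 were also found with the union of exons as length. Other ranks changed with it: in CD4 at transplant Irf2 (786 per kb) then fell below Irf9 (901) and Irf3 (875).

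As a share of the 7 members per length, which no scaling between libraries can move, Irf8 made up 2.52, 8.08, 2.06 and 14.9% and Irf5 1.69, 6.43, 0.402 and 4.67%. Together they went from 4.22 to 14.5% in CD4 and from 2.46 to 19.6% in CD8. Irf3 went from 16.6 to 9.63% in CD4 and from 14.6 to 8.45% in CD8, and Irf9 from 16.1 to 12.4% and from 14.2 to 9.76%. Irf1 held 32.1, 34.1, 37.9 and 32.9% and Irf2 19.3, 19.2, 19.3 and 20.9%. Within a library, the Irf8 level per length was 0.131 and 0.107 of the Irf2 level at transplant in CD4 and CD8 and 0.421 and 0.715 of it after transplant. The sum of the 7 per kb was 6709, 5561, 6004 and 5729, so the make-up differed more between libraries than the sum did.

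**Figure D4:**
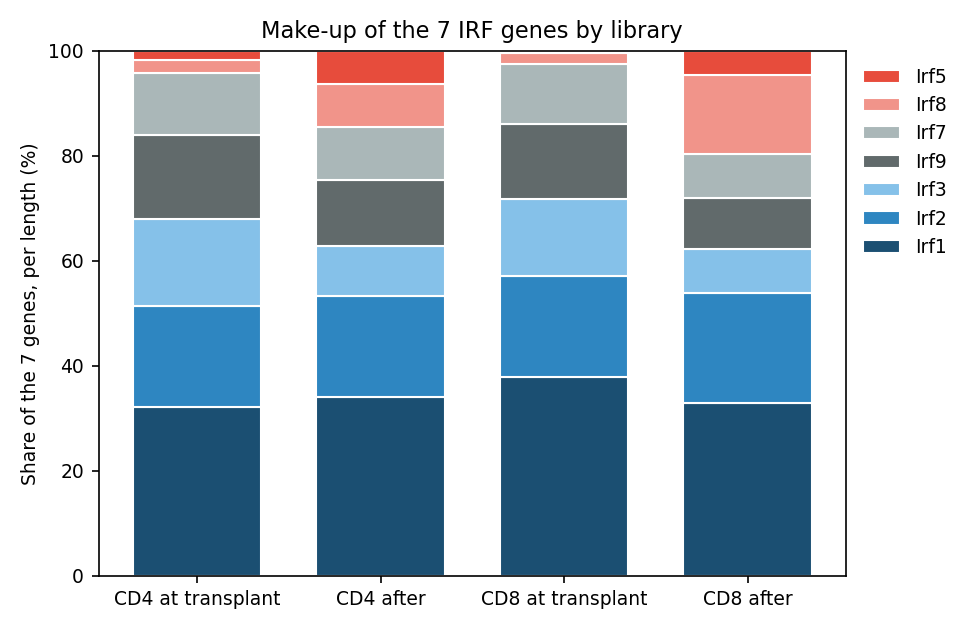
Share of each IRF gene in the summed value per kilobase of the 7 genes, by library, in percent. Irf5 and Irf8 together take 4.22 and 2.46% in the CD4 and CD8 libraries at transplant and 14.5 and 19.6% after it.

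For each member, the 3 genes of most similar pattern were taken from 8315 genes whose mean reached 10 ppm, by the Euclidean distance of log2 profiles centred over the 4 libraries. Tox, a nuclear factor of persistently stimulated T cells, lay nearest to Irf8 at a distance of 0.10, with values of 1037, 2833, 736 and 5368. The next were Gsto1, a glutathione transferase, and Scpep1, a serine carboxypeptidase, at 0.25 and 0.26. Irf5 had no gene closer than 0.26, where C3, the complement component, stood at 278, 681, 52.9 and 537. Sdcbp2, a syntenin, and Anxa1, an annexin, followed at 0.27 and 0.28, with Anxa1 at 705, 1850 (CD4 after), 128 and 1338. The nearest genes of the other members lay at distances of 0.02 to 0.05: Usp42, Trim28 and Jtb for Irf1, Sdha, Rpf1 and Ube2g1 for Irf2, Msl2, Naglu and Heatr5a for Irf3, Golga3, Zfp157 and Zufsp for Irf7, and Usp40, Stk25 and Ring1 for Irf9. With 4 libraries such likeness is a description of these profiles.

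Of the genes that carry signals to the IRFs, the interferon gamma receptor chains went opposite ways. The counts in this and the following lists stand beside shares over all genes tested. These were 12.1% higher and 10.8% lower in CD4, and 15.0% and 11.0% in CD8. The medians over all genes tested were -0.08 in CD4 and 0.02 in CD8. Among interferon receptor chains and their kinases, 8 of 9 listed genes passed the filter. In CD4, 1 was higher after transplant and 2 were lower (median log2 ratio -0.38), and in CD8, 0 were higher and 3 lower (-0.42). Ifngr2, the signalling chain of the interferon gamma receptor, went from 1086 to 49.97 in CD4 and from 559 to 38.1 in CD8 (log2 ratios -4.09 and -3.44). Ifngr1, the ligand-binding chain, went from 2810.1 to 6779.8 in CD4 and from 4394 to 7214 in CD8 (1.27 and 0.71). Jak1, a kinase of both receptor types, went from 19831 to 9873 and from 21988 to 10323 (-1.01 and -1.09), and Ifnar2, a chain of the type I receptor, had log2 ratios of -0.79 and -1.16.

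Of the 22 genes that sense nucleic acid and activate Irf3, Irf5 and Irf7, 18 passed the filter, with 1 higher and 2 lower in CD4 (median -0.07) and 2 higher and 2 lower in CD8 (-0.05). Ikbke, a kinase of Irf3 and Irf7, went from 5178 to 1748 in CD4 and from 4372 to 932 in CD8. Its relative Tbk1, named here after its values were seen, went from 1378 to 1428 and from 1121 to 1394. Ifih1, the RNA sensor MDA5, was higher (630.1 to 2127, and 323 to 1016), and Tlr7, a sensor of RNA that signals to Irf5 and Irf7, was lower (247 to 47.3, and 206 to 74.8). Unc93b1, which carries such receptors to endosomes, stood at 599 and 601 in CD4 and at 202 and 449.9 in CD8.

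Of 15 proteins that act on DNA or chromatin with IRFs, 12 passed the filter, with 3 higher and 2 lower in CD4 (median -0.17) and 4 higher and 2 lower in CD8 (-0.31). Batf, which pairs with IRFs on composite sites, went from 592 to 3004 in CD4 and from 502 to 2302 in CD8, and Etv6, an ETS family repressor, had log2 ratios of 1.64 and 1.43. Crebbp, a coactivator, went from 2017 to 687 and from 1725 to 458. Spi1 (listed as Sfpi1), the myeloid factor PU.1 that binds with Irf8, stood at 284, 179.7, 68.5 and 210.2, which is the order of the macrophage sum. Stat2, the partner of Irf9, stood at 1406, 1050.2, 1103 and 815 and stayed within 2-fold.

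All 12 listed brakes and corepressors passed the filter. Over all genes tested, 10.8% in CD4 and 11.0% in CD8 were lower. Of the 12, 0 were higher and 2 lower in each fraction (medians -0.40 and -0.76). The lower ones were Usp18, which restrains the type I receptor, from 484 to 196 in CD4 and 473 to 117 in CD8, and 6430527G18Rik, paired with Irf2bpl in RefSeq's synonyms, with log2 ratios of -1.58 and -1.55. Irf2bp2, an Irf2 corepressor, had -0.48 and -0.98, and Socs3, a brake on cytokine receptors, -0.95 and -0.92.

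Of the 18 genes listed as interferon gamma and Irf1 targets, 17 passed the filter, with 3 higher and 1 lower in CD4 (median 0.32) and 2 higher and 0 lower in CD8 (-0.12). Casp1, an inflammatory protease, went from 248 to 1906 in CD4 and from 68.5 to 1119.9 in CD8, and it is also abundant in myeloid cells. Gbp3, a guanylate-binding protein, went from 292 to 1926 and from 499 to 1709, and its relative Gbp5 had log2 ratios of 1.28 and 0.36. Ciita, the coactivator of MHC class II genes, went from 336 to 84.2 in CD4, the direction of the macrophage sum, and from 64.4 to 117 in CD8. In CD4, Casp1 went the other way from that sum and the same way as the neutrophil sum (18782 to 31799). Which cells carried Casp1 and Ciita was not tested.

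Of the 24 genes listed as type I interferon targets through Irf9 or Irf7, 22 passed the filter, with 3 higher and 3 lower in CD4 (median -0.16) and 3 higher and 5 lower in CD8 (-0.46). Mx1, an antiviral GTPase, went from 129 to 718 in CD4 and from 306 to 750.3 in CD8. Oas2, an oligoadenylate synthetase, went from 799 to 125 and from 411 to 63.5, and its relative Oasl1 had log2 ratios of -1.61 and -1.85. The list thus held genes of either direction, and some of them, such as Stat2, Usp18 and Dhx58, stand in another list too. Of 10 interferon genes, 9 were at 0 in all 4 libraries, all but interferon gamma itself. Ifng went from 61.1 to 2072 in CD4 and from 23.95 to 2039 in CD8.

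**Figure D5:**
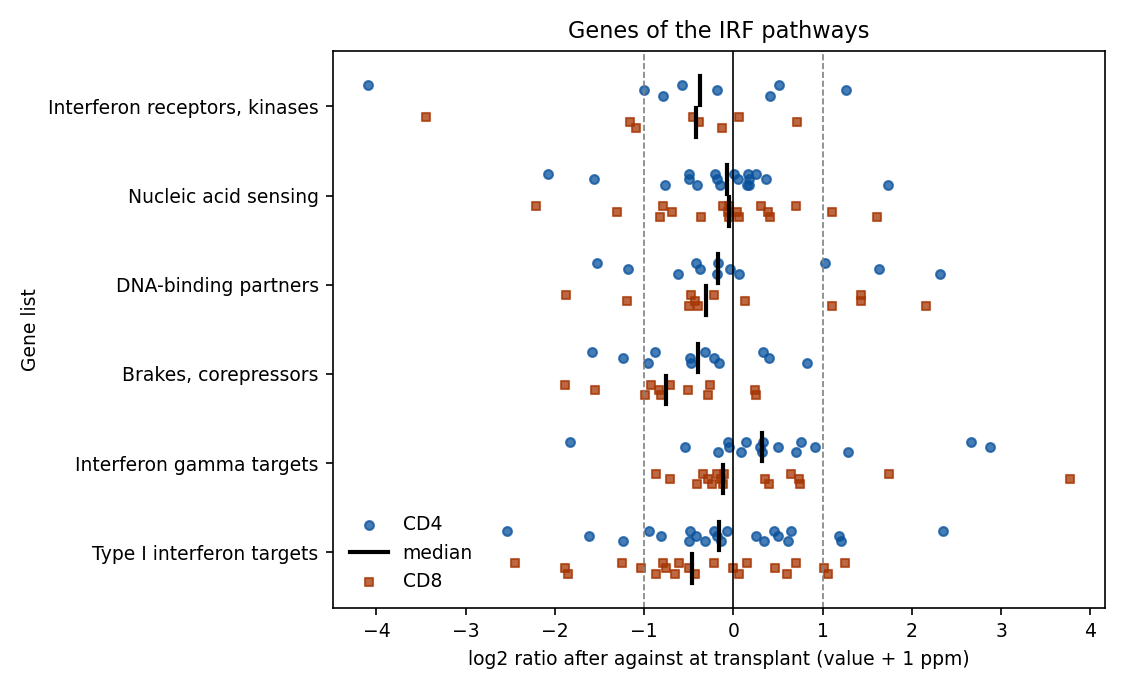
log2 ratio after against at transplant of each gene that passed the filter in 6 lists of IRF pathways, for CD4 (circles) and CD8 (squares), with list medians as bars and 2-fold as dashed lines. List medians lie between -0.76 and 0.32, and Ifngr2 lies farthest below 0 at -4.09 and -3.44.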

How the data were processed

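RNA-seq of 4 libraries was analysed, each from 5 pooled mice and prepared, per the labels' protocols, with an RNeasy kit and the TruSeq mRNA protocol. The deposited signal holds RSEM's estimated reads of each gene after scaling every library to an upper quartile near 1000. Per the submitters' processing notes, RSEM 1.1.13, SAMtools 1.2 and build mm9 were used. Aligner, annotation and scaling step are not given in the sources used here. Dividing by the value of 1 read (0.664, 0.877, 0.826 and 1.41) gave estimated reads, 86.4 to 87.6% of them within 0.1 of a whole number. Depth limits precision to the printed counting intervals.

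Log2 ratios used a pseudocount of 14.7 (1 ppm of the mean library total), genes whose mean reached 5 ppm, and a 2-fold threshold. The members and lists were chosen with earlier results of these data known. Named genes were the members, the 3 nearest profiles of each, up to 4 largest log2 ratios per pathway list and the 3 most abundant markers of each other cell type. Some genes that this rule names are not reported here. Further markers named as absent, as rare or as ranked unlike their sum were chosen after their values were seen. Alternatives were 4 scalings, 2 pseudocounts and 2 filters. Start regions come from RefSeq and exon lengths from GENCODE M21, both on GRCm38. Computations used Python 3.11.15, SciPy 1.17.1 and pandas 2.3.3 and were tested on simulated data.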

Additional observations from a re-analysis of the deposited data

Results flagged for a closer look

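Irf2 was lower after transplant in CD4 (1961 to 1618, log2 ratio -0.28) and slightly higher in CD8 (1754 to 1815, log2 ratio 0.05), so the fractions went opposite ways, with a difference of 0.32 on the log2 scale. With 1 library per group the difference was not tested against replicate error. The counting interval of the ratio of ratios was 1.15 to 1.37, and that of the CD8 ratio included 1. Under trimmed mean of M-values and median of ratios scaling the CD8 value was also below 0, at -0.05 and -0.04.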

How the results depend on the processing

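No paired analysis was possible because each group holds 1 library. Of 72 counts of members past 2-fold under other settings, 69 were equal to the reported count or within 1.5 times of it. The exceptions concern Irf3 in CD4: the count of 1 lower member became 0 with median of ratios scaling, with equal library totals, and, in a setting added after the data were seen, when the counting interval had to lie wholly beyond 2-fold. Of 28 member ratios, 27 kept their call under all 6 scalings and pseudocounts. Of 168 such values 7 had the other sign, all for Irf1 or Irf2 ratios reported as 0.01 to 0.16. The CD8 log2 ratio of Irf5 moved most, from 3.13 to 2.49 with a pseudocount 4 times as large and 3.38 with one 0.25 times as large, and it rests on 59.6 reads at transplant. Replicate error was not measurable.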
